A study of Homo sapiens with 6 samples.

Results

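The replication-dependent histone genes are 72 protein-coding genes of the 58440 gene identifiers in the deposited count table. They were chosen by name: 70 have a current symbol that begins with H2AC, H2BC, H3C or H4C and a digit or is one of the linker histone genes H1-1 to H1-6, and 2 (H3-4 and H3-7) entered through their older HIST3 and HIST2 names. The series holds 6 RNA libraries of K562, a human cell line from a chronic myeloid leukaemia with erythroid features. Its 3 IRAIN over-expression libraries were compared with 3 controls. IRAIN is a noncoding antisense transcript of the growth factor receptor gene IGF1R. The labels call the controls wild type, whereas their columns in the table are named vector, and the presence of an empty vector is not given. How IRAIN was over-expressed, and whether a group is a clone or a pool, is not given in the sources used here either.

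Replication-dependent histone genes supply the core histones H2A, H2B, H3 and H4 and the linker histone H1 that package newly made DNA during S phase. Their mRNAs are the animal mRNAs that end without a poly(A) tail: a short hairpin after the stop codon is bound by the stem-loop binding protein SLBP, and the transcript is cut a few bases beyond it. Many genes code for the same or nearly the same protein. Most of them lie in clusters, where an H2A and an H2B gene often stand head to head and share a promoter. Some of these genes also make longer, spliced or polyadenylated transcripts, and a few are used mainly in male germ cells. The kit named in the labels is a TruSeq RNA kit. Whether the RNA was selected by its poly(A) tail is not stated there, and such a step would bear on how much of these mRNAs a library holds.

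The hairpin was found in the annotated transcripts of 32 of the 72 genes, 22 to 67 bases after the stop codon (median 35.5). It is shown because it sets these mRNAs apart from other mRNAs. Each of the following is a member of a different form of the element, with 5 bases on either side and the hairpin itself in capitals, and each lies in the 3′ untranslated region of the gene named.
H2AC8: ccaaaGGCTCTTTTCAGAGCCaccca
H2BC4: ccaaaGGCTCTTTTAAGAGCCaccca
H4C5: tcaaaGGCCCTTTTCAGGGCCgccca
H4C14: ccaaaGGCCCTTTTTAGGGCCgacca
H3C6: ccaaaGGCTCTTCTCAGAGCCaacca
H2AC11: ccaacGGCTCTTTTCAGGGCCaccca
The form of H2AC8 occurred in 17 genes of the H2A, H2B and H3 types. The form of H2BC4, which differs from it within the loop, occurred in 5 genes of the H2B and H3 types. Among H4 genes, 5 had the form of H4C5 and 3 had that of H4C14, which differs from it within the loop. H3C6 and H2AC11 had forms found in no other member.

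Between H4 genes the median identity of the coding sequences was 83.7%, with 85.2% for H2A and for H3 and 90.15% for H2B. The start of the coding sequence is shown for the 5 H4 genes that the results below turn on, with capitals where a base differs from H4C4.
H4C4: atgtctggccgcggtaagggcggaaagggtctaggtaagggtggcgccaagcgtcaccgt
H4C3: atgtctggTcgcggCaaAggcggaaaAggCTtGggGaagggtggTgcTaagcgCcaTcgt
H4C5: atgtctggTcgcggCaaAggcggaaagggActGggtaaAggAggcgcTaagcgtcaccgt
H4C8: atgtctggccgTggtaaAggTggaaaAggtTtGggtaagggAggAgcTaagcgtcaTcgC
H4C2: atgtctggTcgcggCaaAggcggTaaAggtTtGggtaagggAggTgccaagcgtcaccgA
Over these first 60 bases, H4C3 differed from H4C4 at 12 positions, H4C8 at 11, H4C2 at 10 and H4C5 at 8. Uniqueness was assessed in the shortest coding transcript of each member, which is the length meant here and below. Of the 72 members, 42 had no stretch of 75 bases in common with an annotated transcript of another gene, and 12 had such uniqueness over less than 10% of their length. The coding sequences were identical in the pairs H3C14 and H3C15, H4C14 and H4C15, H2AC18 and H2AC19, and H4C11 and H4C12, and the values of these genes are uncertain because reads could have been shared or dropped.

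Promoters of 66 members were available from RefSeq (GRCh38.p14). The 250 bases before the start site are shown for H2BC1, whose level differed most, and for 3 H4 genes that moved in different directions. Capitals mark 4 motifs searched on both strands: the octamer ATTTGCAT, known as the binding site of POU2F1 in H2B promoters, the CCAAT box bound by NF-Y, the TATA box letters TATAAA, and GGTCCG, core letters of the H4 promoter element that HINFP binds. The stretches lie at chr6:25726527-25726776 on the plus strand for H2BC1, chr6:26189113-26189362 on the minus strand for H4C4, chr6:26204360-26204609 on the plus strand for H4C5 and chr6:26285535-26285784 on the minus strand for H4C8.
H2BC1: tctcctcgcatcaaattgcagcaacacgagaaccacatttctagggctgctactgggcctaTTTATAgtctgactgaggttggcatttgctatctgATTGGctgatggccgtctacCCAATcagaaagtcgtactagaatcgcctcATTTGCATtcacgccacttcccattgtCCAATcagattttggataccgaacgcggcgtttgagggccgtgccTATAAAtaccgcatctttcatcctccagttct
H4C4: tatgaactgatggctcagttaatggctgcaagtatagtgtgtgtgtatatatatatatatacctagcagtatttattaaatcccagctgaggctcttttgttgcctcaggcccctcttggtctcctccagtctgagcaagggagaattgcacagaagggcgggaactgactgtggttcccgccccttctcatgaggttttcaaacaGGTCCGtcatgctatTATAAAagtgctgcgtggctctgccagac
H4C5: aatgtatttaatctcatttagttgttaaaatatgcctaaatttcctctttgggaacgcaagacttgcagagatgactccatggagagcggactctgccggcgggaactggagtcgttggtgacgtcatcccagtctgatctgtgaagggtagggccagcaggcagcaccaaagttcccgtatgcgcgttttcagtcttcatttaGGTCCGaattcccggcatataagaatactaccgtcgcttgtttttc
H4C8: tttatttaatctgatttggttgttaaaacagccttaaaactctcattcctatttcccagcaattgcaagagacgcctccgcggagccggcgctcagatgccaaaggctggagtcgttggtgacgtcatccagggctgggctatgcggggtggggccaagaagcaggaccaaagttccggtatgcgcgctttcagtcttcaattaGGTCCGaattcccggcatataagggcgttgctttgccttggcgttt
In windows from 250 bases before to 50 after the start, ATTTGCAT was present in 14 of 18 H2B and 11 of 16 H2A promoters and in 1.77% of 35116 promoters of all genes. CCAAT was present in all 53 windows of H1, H2A, H2B and H3 genes, in 3 of 13 H4 windows and in 34.6% of all promoters. GGTCCG was in 12 of 13 H4 windows, against 11.3% of all promoters, and TATAAA in 66.7% of the members' windows, against 11.5%. The stretch between H2BC1 and H2AC1 serves both genes, whose windows overlap by 286 bases. H4C5 and H4C8 shared an unbroken run of 26 bases around the H4 element, the third longest among 78 pairs of H4 windows, whose median was 9 bases, although H4C5 rose and H4C8 fell in the comparison below. These matches describe letters in a window and not use by a factor.

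Library totals were 11558983, 12969218 and 13303139 counts for over-expression and 11893872, 12237415 and 11949606 counts for controls. IRAIN had 97, 94 and 106 counts in the over-expression libraries, against 0, 0 and 1 in the controls. Erythroid markers of K562 were present in every library (10 of 10 tested, summed at 1394 to 1437 CPM in over-expression libraries and 1538 to 1573 CPM in controls). Of 8 lymphocyte markers, 2 passed the filter on low counts, with the list summed at 8.06 to 8.77 CPM in over-expression libraries and 7.43 to 9.67 CPM in controls. Of 8 fibroblast and epithelial markers, 4 passed, with sums of 135 to 154 CPM in over-expression libraries and 130 to 136 CPM in controls. The labels do not state separate cultures for replicates. The p-values therefore measure the spread between these libraries alone, which may be technical.

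The histone genes changed in both directions, and mostly by little. Of the 72 genes, 55 had enough counts to be tested. With edgeR's quasi-likelihood test and Benjamini-Hochberg adjustment over all genes, 19 were higher and 15 lower in over-expression cells at an adjusted p below 0.05, and 21 did not pass. This is 61.8% of those tested, against 39.3% of all 18380 genes tested (20.3% higher and 18.9% lower). The over-expression and control libraries did not overlap for 26 of the 55 genes (47.3%), a share close to that of all genes (47.5%). The median log2 fold change was 0.02, with -0.0011 over all genes, and 30 of the 34 called genes differed by less than 1.5-fold. The other 4 were H2BC1, H2AC1 and H1-6, which were lower, and H4C4, which was higher. In a test against a change of 1.5-fold, H2BC1 and H2AC1 passed, as did 3.75% of all genes. DESeq2 called 10 higher and 10 lower (background 21.8% of 22041 genes). These calls also depend on single libraries: 12 genes were called higher and 17 lower without over-expression replicate 1, and 24 higher and 13 lower without over-expression replicate 3.

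**Figure D1:**
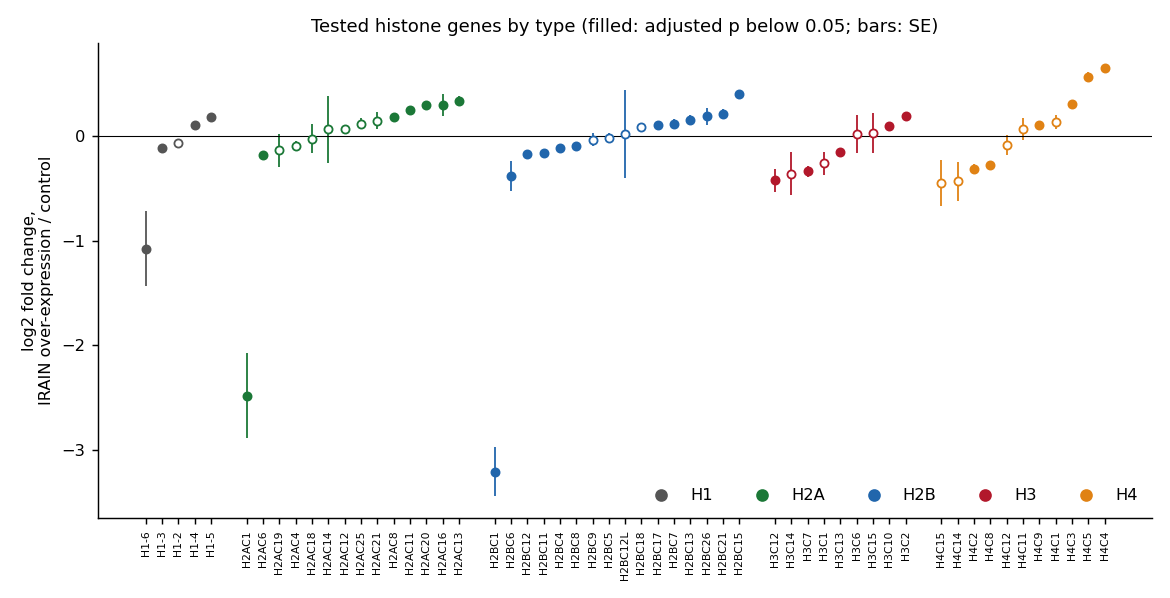
Log2 fold change (vertical axis, over-expression over control) with its SE for each of the 55 tested histone genes, grouped by histone type and ordered within it. Filled points passed the adjusted p threshold of 0.05. Apart from H2BC1, H2AC1 and H1-6, all points lie between -0.45 and 0.65.

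Among the tested members, the testis-type genes H2BC1, H2AC1 and H1-6 showed the largest differences. Each passed the filter on low counts only through its counts in the controls. Their ranking and p-values are therefore not independent of that filter. H2BC1, which encodes the testis form of H2B (chr6:25726777-25727292 on GRCh38), had 9, 8 and 12 counts in over-expression libraries, against 74, 88 and 103 counts in controls. Its neighbour H2AC1, the testis form of H2A (chr6:25726132-25726527), had 0, 7 and 7 counts in over-expression libraries, against 27, 28 and 23 counts in controls. Both genes were lower in every over-expression library than in any control, although neither reached 10 CPM. H2BC1 averaged 0.775 ± 0.142 CPM in over-expression cells and 7.26 ± 1.19 CPM in controls (SD, n = 3 each), a log2 fold change of -3.21 ± 0.24 (SE, adjusted p = 6.4e-18). H2AC1 averaged 0.36 ± 0.312 CPM in over-expression cells and 2.14 ± 0.204 CPM in controls, a log2 fold change of -2.48 ± 0.41 (adjusted p = 8.5e-07). H1-6, the testis linker histone, had 7, 7 and 12 counts in over-expression libraries, against 19, 17 and 18 counts in controls, with a log2 fold change of -1.08 ± 0.36 (adjusted p = 0.013). The call for H1-6 was lost without over-expression replicate 2 (adjusted p = 0.073) and with DESeq2 (adjusted p = 0.127). H3-4, the testis form of H3, had too few counts to be tested. It had 5, 12 and 6 counts in over-expression libraries, against 13, 5 and 5 counts in controls, so no fall was seen for this member.

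H1, the linker histone that binds DNA between nucleosomes, had 5 tested genes, of which 2 rose (H1-5 and H1-4) and 2 fell (H1-3 and H1-6). Called H1 genes made up 80% of those tested, against 39.3% of all genes. H1-2 made up 62% of all H1 counts and, per length, had the highest level of all members, at 1763 CPM per kb of exon in over-expression cells and 1852 CPM per kb in controls. It had 1201, 1153 and 1041 CPM in over-expression libraries, against 1159, 1182 and 1227 CPM in controls, so that the groups overlapped. Its log2 fold change was -0.07 ± 0.03 and did not pass (adjusted p = 0.053), but it passed under the other scalings (adjusted p = 0.0446 with RLE) and without over-expression replicate 1 (adjusted p = 0.00282) or control column 1 (adjusted p = 0.0266). H1-4 had 437, 379 and 353 CPM in over-expression libraries, against 347, 367 and 372 CPM in controls, and its rise (log2 fold change 0.10 ± 0.037, adjusted p = 0.024) was lost without over-expression replicate 1 (adjusted p = 0.735), without control column 1 (adjusted p = 0.172), and with DESeq2, voom or an offset for GC content and length. H1-5 rose by 0.18 ± 0.037 on the log2 scale (adjusted p = 5.3e-05), with groups that did not overlap. H1-3 fell by 0.12, a call that was lost without over-expression replicates 2 or 3 (adjusted p = 0.107 and 0.105) or control column 2 (adjusted p = 0.0896) and with DESeq2 (adjusted p = 0.0872).

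Among 14 tested H2A genes, 5 rose and 2 fell (50% called, against 39.3% of all genes). Whether the called shares differ between histone types was not tested. H2AC11 took 31.8% of H2A counts and had 684, 620 and 618 CPM in over-expression libraries, against 520, 541 and 559 CPM in controls. All 3 over-expression libraries were above all controls, and the log2 fold change was 0.25 ± 0.03 (adjusted p = 5.2e-10). H2AC20, of the chromosome 1 cluster, had 326, 343 and 339 CPM in over-expression libraries, against 289, 267 and 267 CPM in controls (log2 fold change 0.29 ± 0.031, adjusted p = 5.9e-12). H2AC13 had 207, 181 and 155 CPM in over-expression libraries, against 138, 146 and 145 CPM in controls (log2 fold change 0.34 ± 0.047), although 39.9% of its length was unique. For H2AC8 the log2 fold change was 0.18, and for H2AC16, a gene of 17.0 CPM in over-expression cells and 13.8 CPM in controls, it was 0.30. The H2AC16 call was lost without over-expression replicate 1 (adjusted p = 0.276) or 2 (adjusted p = 0.0755), without control column 1 (adjusted p = 0.324) and with DESeq2 (adjusted p = 0.198). Beside H2AC1, H2AC6 fell, with 233, 224 and 209 CPM in over-expression libraries against 247, 259 and 248 CPM in controls (log2 fold change -0.18 ± 0.033, adjusted p = 7.9e-06). The 7 H2A genes that did not pass had log2 fold changes between -0.14 (H2AC19) and 0.15 (H2AC21). Among these, 4 passed in some alternative: H2AC21, H2AC25 and H2AC12 without over-expression replicate 3 (adjusted p = 0.0496, 0.0289 and 0.0186), H2AC25 also without replicate 2 (adjusted p = 0.0176), and H2AC4 without replicate 1 (adjusted p = 0.035).

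H2B genes split evenly, with 6 of 16 tested genes higher and 6 lower (75% called, against 39.3% of all genes). H2BC15 had 197, 187 and 174 CPM in over-expression libraries, against 140, 143 and 140 CPM in controls, which gave the largest rise among H2B genes (log2 fold change 0.40 ± 0.037, adjusted p = 5.5e-14). H2AC15 lies within H2BC15 on the other strand and the deposited counts do not use strand, so this value is uncertain. H2BC12 had the highest level of this type per length and 339, 318 and 277 CPM in over-expression libraries, against 339, 358 and 354 CPM in controls. Its groups overlapped at 339 CPM, and its fall (log2 fold change -0.17 ± 0.037, adjusted p = 0.00012) was lost with DESeq2 (adjusted p = 0.165). H2BC12 is unique over 49.5% of its length, and its coding sequence is 99.0% identical to that of H2BC12L. H2BC4 had 278, 264 and 267 CPM in over-expression libraries, against 288, 292 and 296 CPM in controls (log2 fold change -0.12 ± 0.03, adjusted p = 0.0015). H2BC6 had 5.26, 5.40 and 6.97 CPM in over-expression libraries, against 7.98, 7.27 and 7.93 CPM in controls, a log2 fold change of -0.39 ± 0.14 (adjusted p = 0.027). That call was lost without over-expression replicate 1 (adjusted p = 0.119) or 2 (adjusted p = 0.12), without control column 1 (adjusted p = 0.0758) or 3 (adjusted p = 0.0756), and with DESeq2 (adjusted p = 0.186). The other called H2B genes moved by less: H2BC21, H2BC26, H2BC13, H2BC7 and H2BC17 had log2 fold changes of 0.21, 0.19, 0.15, 0.11 and 0.10, and H2BC11 and H2BC8 of -0.16 and -0.10. The H2BC7 call was lost without over-expression replicate 1 (adjusted p = 0.16) or 2 (adjusted p = 0.498), without control column 3 (adjusted p = 0.21), and with DESeq2 or voom, and the H2BC17 call without control column 2 (adjusted p = 0.0585) and with DESeq2 (adjusted p = 0.0536). H2BC18, which was not called (log2 fold change 0.09), passed without over-expression replicate 3 (log2 fold change 0.17, adjusted p = 2.0e-05).

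Head-to-head H2A and H2B genes did not always move together. Of 11 such pairs with starts 219 to 331 bases apart, 8 had both genes tested and 5 of these had log2 fold changes of the same sign. Both genes were called in 6 pairs. H2AC20 and H2BC21 rose together, by 0.29 and 0.21 on the log2 scale, and so did H2AC13 and H2BC13, by 0.34 and 0.15. H2AC1 and H2BC1 both fell, as did H2AC6 and H2BC4. In the other two pairs the H2A gene rose and the H2B gene fell. H2AC11 rose by 0.25 while H2BC11, with 201, 184 and 171 CPM in over-expression libraries against 207, 202 and 211 CPM in controls, had a log2 fold change of -0.16 ± 0.037 (adjusted p = 0.00037). H2AC8 had 220, 236 and 223 CPM in over-expression libraries, against 202, 194 and 202 CPM in controls. Its partner H2BC8 had 200, 181 and 169 CPM in over-expression libraries, against 182, 200 and 206 CPM in controls, and the groups overlapped. The H2BC8 call (log2 fold change -0.10 ± 0.04, adjusted p = 0.041) was lost without over-expression replicate 2 (adjusted p = 0.165) or 3 (adjusted p = 0.411), without control column 2 (adjusted p = 0.149) or 3 (adjusted p = 0.311), and with DESeq2 (adjusted p = 0.505). H2BC21 had 202, 197 and 164 CPM in over-expression libraries, against 161, 166 and 158 CPM in controls, and its call was lost with DESeq2 (adjusted p = 0.0931). H2BC13 had 99.0, 92.0 and 82.4 CPM in over-expression libraries, against 78.2, 84.2 and 83.5 CPM in controls. The H2BC13 call was lost without over-expression replicate 1 (adjusted p = 0.165) or 2 (adjusted p = 0.0529), without control column 1 (adjusted p = 0.0848) and with DESeq2 (adjusted p = 0.11).

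For H3, the histone whose tail carries many of the known chromatin marks, 2 of 9 tested genes rose and 3 fell. Called H3 genes made up 55.6% of those tested, against 39.3% of all genes. H3C2 held 48% of H3 counts and had 499, 471 and 423 CPM in over-expression libraries, against 403, 412 and 403 CPM in controls. All 3 over-expression libraries were higher, with a log2 fold change of 0.19 ± 0.033 (adjusted p = 1.9e-06). H3C10 had 232, 207 and 208 CPM in over-expression libraries, against 203, 202 and 201 CPM in controls. Its rise of 0.09 ± 0.035 on the log2 scale (adjusted p = 0.026) was lost without over-expression replicate 1 (adjusted p = 0.336), without control column 2 (adjusted p = 0.0699) or 3 (adjusted p = 0.088) and with DESeq2 (adjusted p = 0.149). H3C7 fell, with 56.1, 50.8 and 53.0 CPM in over-expression libraries, against 69.1, 63.9 and 68.7 CPM in controls (log2 fold change -0.34 ± 0.052, adjusted p = 2.1e-07). H3C12 had 11.8, 11.0 and 10.1 CPM in over-expression libraries, against 13.1, 17.1 and 13.9 CPM in controls, a log2 fold change of -0.42 ± 0.11 (adjusted p = 0.0011). H3C13 also fell, by 0.16 on the log2 scale, but it is unique over 29.7% of its length. H3C1 was not called (log2 fold change -0.26) but passed without over-expression replicate 1 (adjusted p = 0.0481), without control column 1 (adjusted p = 0.0203) and with the offsets for GC content and length (adjusted p = 0.0398).

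Among 11 tested H4 genes, 4 rose and 2 fell (54.5% called, against 39.3% of all genes). The 2 largest rises of all members were of this type. H4C4 (chr6:26188765-26189076) had 322, 333 and 329 CPM in over-expression libraries, against 213, 203 and 209 CPM in controls. The groups lay far apart for their spread, at 328 ± 5.71 CPM in over-expression cells and 208 ± 5.02 CPM in controls (SD, n = 3 each), a change of 1.57-fold (log2 fold change 0.65 ± 0.031, adjusted p = 6.5e-27). H4C5 (chr6:26204552-26206038) had 202, 202 and 160 CPM in over-expression libraries, against 127, 134 and 119 CPM in controls (log2 fold change 0.56 ± 0.048, adjusted p = 1.6e-15). H4C3 had 278, 268 and 245 CPM in over-expression libraries, against 203, 221 and 215 CPM in controls (log2 fold change 0.31 ± 0.035, adjusted p = 7.5e-11). In contrast, H4C8 (chr6:26277609-26285638) had 196, 203 and 196 CPM in over-expression libraries, against 241, 239 and 241 CPM in controls (log2 fold change -0.28 ± 0.032, adjusted p = 5.7e-11). H4C2 had 140, 114 and 114 CPM in over-expression libraries, against 143, 153 and 160 CPM in controls (log2 fold change -0.31 ± 0.046, adjusted p = 5.9e-08). For these 5 genes no over-expression library overlapped a control, which was also so for 47.5% of all genes tested. The nearest libraries of H4C2 were at 140 CPM in over-expression and 143 CPM in controls. All 5 are unique over the whole of their shortest coding transcript. H4C9 rose by 0.11 on the log2 scale, a call that was lost without over-expression replicate 1 (adjusted p = 0.282) or 2 (adjusted p = 0.0512), without control column 3 (adjusted p = 0.166) and with DESeq2 (adjusted p = 0.135). The lowest log2 fold changes of the type, -0.45 for H4C15 and -0.43 for H4C14, belonged to genes under 5 CPM with identical coding sequences and did not pass. H4C14 passed without over-expression replicate 2 (adjusted p = 0.0219), and H4C1, with a log2 fold change of 0.13, without replicate 3 (adjusted p = 0.0103).

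**Figure D2:**
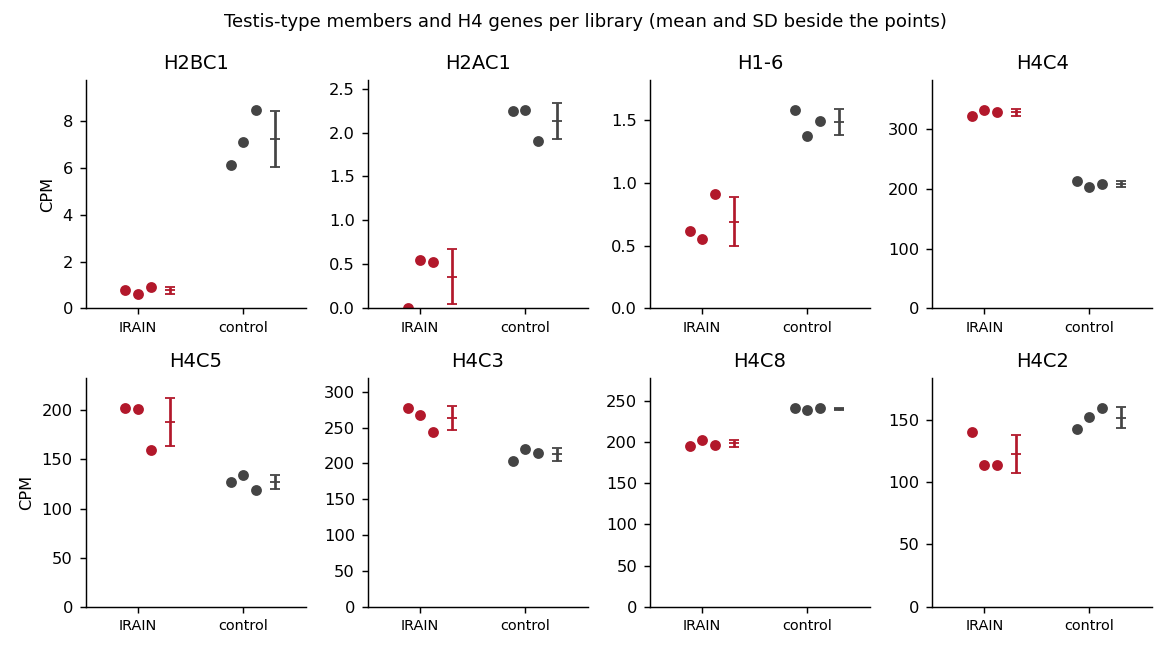
CPM per library (vertical axes, from 0) of the 3 testis-type members that were tested and of 5 H4 genes. Over-expression libraries are in red on the left of each panel and controls in grey, with mean and SD beside the points. H2BC1, H2AC1, H1-6, H4C8 and H4C2 are lower in all over-expression libraries, and H4C4, H4C5 and H4C3 are higher.

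Rises and falls stood side by side along chromosome 6. The cluster at chr6:25726132-26285638 holds 34 members, of which 25 were tested, 7 rose and 11 fell, with a median log2 fold change of -0.09. Within it H4C4 and H4C5, which rose most, lie between H2BC6 and H2BC8, which were called lower, and H4C8 at its end fell. H2BC7, between H4C4 and H4C5, was called higher. The calls of H2BC6, H2BC7 and H2BC8 were each lost when some single library was left out and with DESeq2. In the cluster at chr6:27807444-27893843, 7 of 11 tested members rose and 1 (H3C12) fell, and the median was 0.10. Of these rises, H2BC13, H3C10, H2AC16 and H2BC17 each lost the call when some single library was left out and with DESeq2. The small cluster between these at chr6:27125897-27147515 had 2 rises and 2 falls among 5 genes. In the chromosome 1 cluster at chr1:149782689-149887916, 11 genes were tested, 2 rose (H2AC20 and H2BC21) and H3C13 fell. At the far end of chromosome 1 (chr1:228424845-228460470), H2BC26 was called higher of 2 tested genes, but it lost the call under 10 alternatives beside the test against 1.5-fold, among them other scalings. The adjusted p of H2BC26 was 0.049, and it was 0.0521 with RLE, 0.0551 with upper-quartile scaling, 0.214 and 0.0679 without over-expression replicates 1 and 2, and 0.0778 and 0.253 without control columns 2 and 3. In map order the called shares were 72%, 80% and 72.7% in the chromosome 6 clusters. They were 27.3% in the chromosome 1 cluster and 50% at its far end, against 39.3% of all genes (20.3% higher and 18.9% lower). The difference between clusters was not tested. Of 24 other genes that lie among the chromosome 6 clusters, 15 were tested, 4 rose and 2 fell, a called share of 40% that is near the 39.3% of all genes, with a median log2 fold change of -0.02. Examples are PRSS16, a serine protease of the thymus (0.49 ± 0.092), and the iron regulator HFE (-0.76 ± 0.18).

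**Figure D3:**
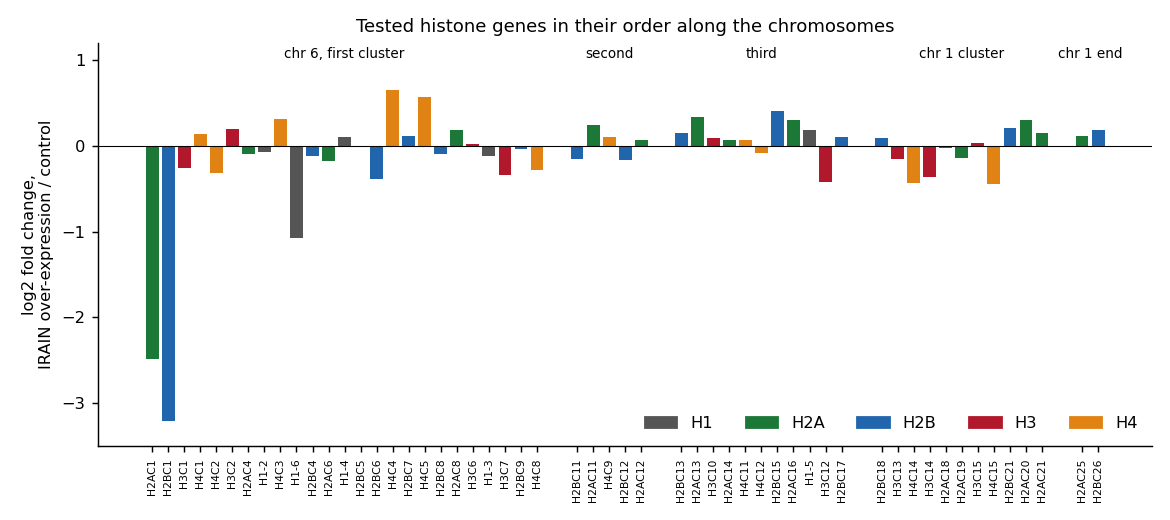
Log2 fold change (vertical axis, over-expression over control) of the tested members, one bar each, in their order along chromosome 6 and chromosome 1, with gaps between clusters and colours for the histone types. H2AC1 and H2BC1 stand at one end of the first cluster, and each chromosome 6 cluster has bars above and below 0.

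Summed over all 72 members, the histone genes took 8831, 8366 and 7788 CPM in over-expression libraries, against 7781, 7951 and 8008 CPM in controls, or 0.773% to 0.872% of all counts. The means were 8329 ± 522 CPM in over-expression cells and 7913 ± 118 CPM in controls (SD, n = 3 each), a difference smaller than the SD of the over-expression libraries. By type, the H4 sum was 1383 ± 73.7 CPM in over-expression cells and 1208 ± 15.8 CPM in controls, and the H2A sum was 1962 ± 84.3 CPM in over-expression cells and 1754 ± 13.3 CPM in controls. For these 2 types the libraries of the groups did not overlap. H1, H2B and H3 sums overlapped between the groups, at 1864 ± 145, 2196 ± 158 and 923 ± 63.9 CPM in over-expression cells, against 1883 ± 51.6, 2181 ± 36.7 and 889 ± 11.9 CPM in controls. In bulk RNA, more or fewer cells in S phase and more or less histone mRNA per cell cannot be told apart.

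**Figure D4:**
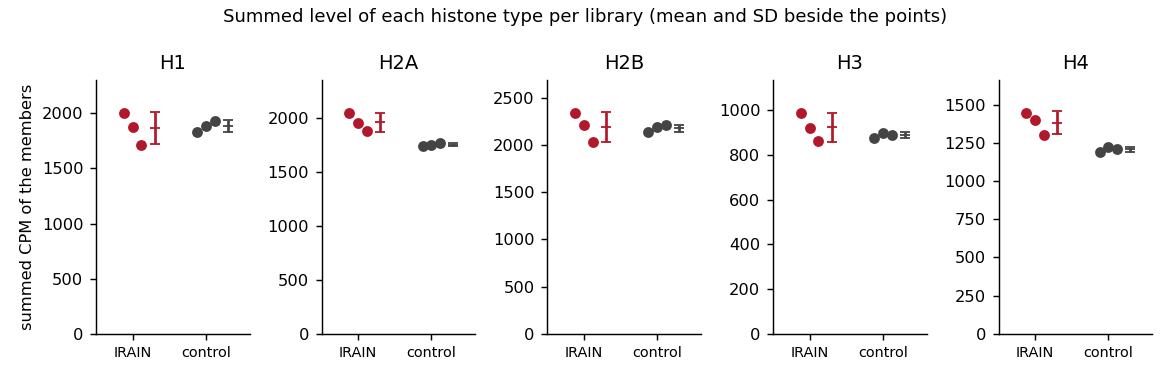
Summed CPM of all members of each histone type (vertical axes, from 0) per library, with over-expression libraries on the left in red and controls in grey, and mean and SD beside the points. H2A and H4 are higher in all over-expression libraries, and in each type over-expression replicate 1 is highest and replicate 3 lowest of the over-expression libraries.

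Over-expression replicate 1 had the highest and replicate 3 the lowest sum of the over-expression libraries in each of the 5 types. RN7SL2, the signal recognition particle RNA, which has no poly(A) tail either, had 5537, 4493 and 3384 CPM in over-expression libraries, against 3273, 4007 and 3582 CPM in controls. Its highest and lowest over-expression libraries were the same as those of the histone sums, and its own call (log2 fold change 0.30 ± 0.062, adjusted p = 4.8e-05) was lost without over-expression replicate 1 (adjusted p = 0.0887) and with DESeq2 (adjusted p = 0.396). Of 24 RNAs without a poly(A) tail, 9 were tested, RN7SL2 rose and 3 fell (44.4% called, against 39.3% of all genes). Another 7 of the 24 were listed at 0 in all libraries. The median log2 fold change of the 9 tested was -0.17. RNU4-2, a spliceosomal RNA, had 26, 26 and 22 counts in over-expression libraries, against 51, 33 and 49 counts in controls. SNORA73B had 53.0, 31.8 and 32.1 CPM in over-expression libraries, against 45.8, 49.1 and 47.7 CPM in controls, and its fall was lost without over-expression replicate 2 (adjusted p = 0.171) or 3 (adjusted p = 0.0596) and with DESeq2 (adjusted p = 0.498). The part of such RNAs' recovery in the histone results was not tested. Of the 19 histone genes called higher, 7 lost the call without over-expression replicate 1 and 0 without replicate 3. A core of 10 rises (H4C4, H4C5, H2BC15, H2AC13, H4C3, H2AC20, H2AC11, H3C2, H2AC8 and H1-5) and 10 falls (H2BC1, H2AC1, H3C12, H3C7, H4C2, H4C8, H2AC6, H2BC11, H3C13 and H2BC4) passed under every alternative other than the test against 1.5-fold. No alternative changed how reads were assigned to genes, so the limits given for H2BC15, H2AC13 and H3C13 remain.

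Rises and falls occurred in every class of annotated 3′ end. Among members annotated with a spliced or long 3′ form, which can carry a poly(A) tail, 23 were tested, 7 rose and 7 fell, with a median log2 fold change of -0.02. Members annotated as a bare coding sequence had 6 rises and 6 falls among 20 tested genes (median -0.0043), and those with a short 3′ untranslated region had 6 rises and 2 falls among 12 (median 0.08). In this order the called shares were 60.9%, 60% and 66.7%, against 39.3% of all genes. Whether these shares differ was not tested.

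Genes that make and process histone mRNA included more falls than rises. Of 28 genes for transcription and 3′ processing, all tested, 13 fell and 2 rose (53.6% called, against 39.3% of all genes), with a median log2 fold change of -0.12. SLBP, the hairpin-binding protein, had 109, 108 and 114 CPM in over-expression libraries, against 123, 123 and 129 CPM in controls (log2 fold change -0.19 ± 0.039, adjusted p = 6.9e-05). NPAT, the coactivator that cyclin E and CDK2 act on at histone loci, had 98.6, 104 and 110 CPM in over-expression libraries, against 133, 127 and 132 CPM in controls (log2 fold change -0.32 ± 0.04, adjusted p = 1.0e-09). The groups of both genes did not overlap, which was also so for 47.5% of all genes tested. CASP8AP2, which is needed at histone locus bodies, had log2 fold change 0.05 ± 0.041 and did not pass (adjusted p = 0.36). SRRT, which links the cap-binding complex to RNA processing, and SNRPB, a protein of the Sm ring, had log2 fold changes of -0.38 and -0.34. The 2 rises were NELFE, a subunit of the negative elongation factor (0.24), and E2F1, the S-phase transcription factor (0.19). The E2F1 call was lost with DESeq2 (adjusted p = 0.0788) and with the offset for GC content and length (adjusted p = 0.117).

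In the list for histone mRNA decay, 4 of 21 genes rose and 6 fell (median 0.02), or 47.6% called against 39.3% of all genes. The decapping enzyme DCP2 averaged 556 ± 3.45 CPM in over-expression cells and 458 ± 3.82 CPM in controls (log2 fold change 0.28 ± 0.027), and the exonuclease XRN1 rose by 0.28. UPF1, the helicase that SLBP recruits for this decay, and the checkpoint kinase ATR had log2 fold changes of -0.24 and -0.22. Histone chaperones had 3 rises and 10 falls among 29 tested genes (median -0.05), or 44.8% called. NAP1L1, which carries H2A and H2B, rose by 0.36 and CHAF1A, of the assembly factor that follows the replication fork, by 0.16, whereas NCL and NAP1L4 had log2 fold changes of -0.26 and -0.24.

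Genes listed as replication-independent histone variants were mostly lower. Of 8 tested genes, 6 fell and 2 rose (100% called, against 39.3% of all genes), with a median of -0.15. H2AX, the variant phosphorylated at DNA breaks, had 182, 178 and 170 CPM in over-expression libraries, against 232, 245 and 229 CPM in controls (log2 fold change -0.41 ± 0.034, adjusted p = 3.3e-16). H3-3B and H3-3A, which encode H3.3, had log2 fold changes of -0.27 and -0.14, and H2AZ1 had -0.14, a call lost without over-expression replicate 2 (adjusted p = 0.0658). H2AZ2 and H1-10 rose by 0.13 and 0.24. Of 27 genes of S phase and replication, 14 fell and 3 rose (63% called, against 39.3% of all genes), with a median of -0.18. Among them were UHRF1 (log2 fold change -0.61) and MCM4 (-0.28) on one side and CDT1 (0.39) and CDC6 (0.15) on the other. PCNA, the sliding clamp, was chosen for mention after its values were seen and had a log2 fold change of -0.29. This list holds SLBP as well.

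**Figure D5:**
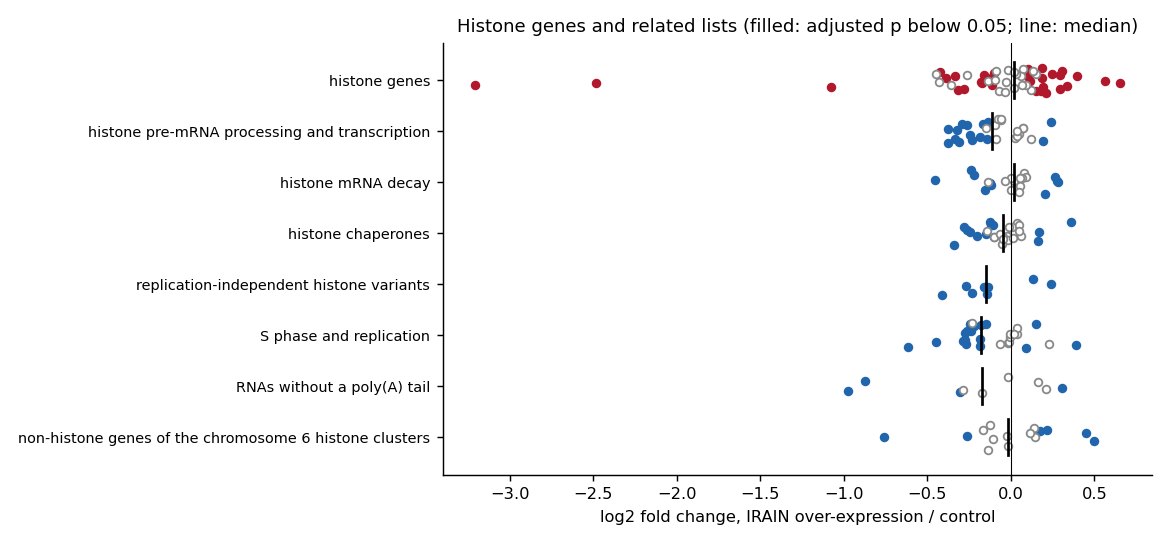
Log2 fold change (horizontal axis, over-expression over control) of the 55 tested histone genes (top row, red) and of the tested genes of 7 related lists, with filled points for an adjusted p below 0.05 and a vertical line at the median of each. The histone genes have a median of 0.02, and the lists for S phase, variants and mRNA processing have medians of -0.18, -0.15 and -0.12.

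For the 17 members that were not tested, no library had more than 13 counts. They are H1-1, H2AC7, H2AC15, H2AC17, H2BC3, H2BC10, H2BC14, H3-4, H3-7, H3C3, H3C4, H3C8, H3C11, H4C6, H4C7, H4C13 and H4C16. H2AC15, H3C4 and H4C6 were listed at 0 in all 6 libraries. H4C6 was unique over 100% of its length, but H2AC15 and H3C4 over 0%, so their counts do not show that they were silent. The same limit holds for H3-7, H2AC7 and H2AC17, which were unique over 0%, 2.19% and 14.7%. A further deposited table gives reads by strand for an unnamed library that, with strand ignored, matches over-expression replicate 2 exactly at every gene. In it 81.2% of the members' reads lay on the gene's own strand, with 84.9% on the major strand over all genes. Of 52 members with at least 20 reads there, 2 had most reads on the other strand: H3C6, with 10 reads on its own strand and 66 on the other, and H4C9, with 1958 on its own strand and 2167 on the other. The deposited counts do not use strand, so the values of H3C6 and H4C9 cannot be ascribed to these genes alone. H2BC12, H2AC21 and H2BC6 had more reads on their own strand (4412, 570 and 86) than with strand ignored (4065, 303 and 69). H2BC15 had 2176 reads on its own strand and 884 on the other, against 2383 with strand ignored. The values of H2BC12, H2AC21, H2BC6 and H2BC15 are therefore uncertain as well. H2AC15 had 515 reads on its own strand and 161 on the other, against 0 with strand ignored. Its listed 0 therefore does not mean that no reads lay on it.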

How the data were processed

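Total RNA of K562 cells was sequenced in 3 IRAIN over-expression and 3 control libraries made with a TruSeq RNA kit, per the labels' protocols. Per the submitters' processing notes, the aligner was STAR and the build hg38 (GRCh38), with versions not given in the sources used here. Raw, whole-number counts per gene were deposited by the authors with no normalization, 11558983 to 13303139 per library, beside a second table of counts by strand for 1 unnamed library. The control columns, named vector and a number, were mapped to the group and not to single samples. Of 58440 identifiers, 58320 matched GENCODE release 29 (GRCh38), which gives coordinates; promoters are from RefSeq and hairpins from GENCODE transcripts.

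The counts were tested with edgeR 4.0.16 (quasi-likelihood F-test, two-sided, TMM factors, filterByExpr, group as the only term, Benjamini-Hochberg adjustment over all tested genes at 0.05) in R 4.3.3. CPM values use TMM-scaled library sizes. Alternatives used RLE and upper-quartile factors, no filter, a filter of 1 CPM in 3 libraries, DESeq2 1.42.0, limma-voom 3.58.1, a test against 1.5-fold, offsets for GC content and length, a replicate block, and each library left out. The step was tested on simulated data. Pairs of libraries within a group differed by more than sampling noise (chi-square per degree of freedom 1.36 to 2.31), so none was merged as the same library deposited again. This does not show separate cultures.

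The members, gene lists and alternatives were chosen with earlier results of these data known. Values per library are given for the 2 members of highest mean CPM in each type, the 5 largest rises and 5 largest falls among called members whose higher group reached 1 CPM, and members of called head-to-head pairs. The lists are represented by the genes of smallest p (at most 2 per direction) and by SLBP, NPAT, CASP8AP2, H3-3A, H3-3B, H2AX, H2AZ1 and IRAIN; an item of this rule is not reported here. H3C7, H4C2, H4C8 and PCNA were added after their values were seen.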

Additional observations from a re-analysis of the deposited data

Results flagged for a closer look

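H2AC15, an H2A gene listed at 0 in all 6 libraries of the count table, had 515 reads on its own strand and 161 on the other in the deposited table of counts by strand, which the comparison does not use. It was listed here because of this signal outside the main measurement. H2AC15 (chr6:27837947-27838339, minus strand, GRCh38) lies within H2BC15 on the plus strand, and its strand-ignored count in that table is 0 as well. The table covers 1 library, so no difference between over-expression and control cells can be given.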

How the results depend on the processing

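The numbers in the column names were tried as a replicate block although the control columns cannot be tied to single labelled samples. Same-numbered libraries did not deviate together (correlations of -0.042 to -0.006 over genes), and the block gave 19 histone genes higher and 16 lower. Among histone genes, 19 were called higher and 15 lower. DESeq2 called 10 higher, the test against 1.5-fold 0 higher and 2 lower, and leaving out each library gave 12 to 24 higher and 12 to 17 lower, with 12 higher without over-expression replicate 1. Of the 14 called members with a long or spliced 3′ form, DESeq2 called 8 and the 1.5-fold test 0, and left-out libraries gave 9 to 15. Of the 20 other called members the numbers were 12, 2 and 15 to 22. In all 7 related lists the 1.5-fold test called 0. For RNAs without a poly(A) tail, with 4 called, DESeq2 called 1 and left-out libraries 2 to 4. For non-histone genes of the chromosome 6 clusters, with 6 called, DESeq2 called 3. Over all genes, with 7217 called, DESeq2 called 4805 and the 1.5-fold test 689. Of called genes tested either way, 55.9% of the members were higher, against 41.4% without over-expression replicate 1 and 64.9% without replicate 3; the offsets for GC content and length gave 43.5% of all called genes higher, against 51.7%. No called member changed direction. Of the members not called, H3C15 turned to -0.0459 with the GC and length offsets and H3C6 to -0.0360 with voom. With each library left out, the log2 fold change ran between -0.1765 and 0.1350 for H3C15, -0.1754 and 0.2583 for H3C6, -0.2693 and 0.5703 for H2BC12L, -0.3278 and 0.4103 for H2AC14, -0.1157 and 0.1605 for H4C11, -0.0779 and 0.0396 for H2BC5, -0.0911 and 0.0296 for H2AC18, -0.2084 and 0.0063 for H4C12, and -0.0759 and 0.0003 for H2BC9. The causes were not tested. Counts under 5 CPM limit the testis-type genes, among which H2BC1 exceeded 5 CPM in the controls only.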
